A study of Mus musculus with 17 samples.

Results

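Levels of 39 genes of DNA replication and mitosis were followed across 6 groups of cells from the aorta-gonad-mesonephros (AGM) region of mouse embryos. The list named 40 genes by symbol, known for roles in S phase and mitosis. For 39 of them a probe set with that symbol alone was found, and the brightest one was taken where a gene had several. Ccnb1 was not found and has no value here. These 39 are part of 19937 genes tested. All cells were sorted from pooled E11.5 AGM regions as positive for CD31 and negative for CD45 and Ter119. Kit- and Kit+ are the fractions without and with the receptor Kit, taken fresh. Kit-J and Kit+J, and Kit-D and Kit+D, were separated by Kit after the unfractionated CD31 positive cells had spent 2 h on OP9-Jag1 or OP9-Dll4, mouse stromal cells made to express a Notch ligand. All cultured groups shared a medium with serum, IL3, SCF, IL6, IGF-1, FGF, VEGF and erythropoietin, so that the cultured and the fresh groups differ in stroma, medium and handling alike. Kit-J had 2 arrays and every other group 3.

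Before a cell copies its DNA, Cdc6 and Cdt1 load the Mcm2 to Mcm7 ring on replication origins, a step called licensing. Mcm10, Cdc45 and the GINS complex then turn that ring into the active helicase, and polymerase alpha with its primase begins new strands. Most of these genes are transcribed under E2F factors as cells enter S phase, whereas the cyclins, kinases and spindle proteins of mitosis are switched on later, largely through the DREAM and Foxm1 complexes that act at CHR elements. In the AGM, haematopoietic clusters that carry Kit bud from the aortic endothelium, and primordial germ cells, which also carry Kit, pass through the same region. Transcript levels in a bulk sample do not separate a larger share of cycling cells from more transcript in each of them.

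Each array gave log2 signals summarized by RMA, and the array medians lay between 5.22 and 5.38. The RNA, only nanograms for each array, was amplified before labelling, and the number of arrays limits the precision. An earlier series supplied the 6 fresh arrays, so that a difference between cultured and fresh cells and one between the array sets cannot be told apart. Both Kit-J records, that of Kit-D replicate 3 and that of Kit+D replicate 3 have 1 line with the opposite Kit fraction, and the titles were followed. The Kit transcript was at 9.081 and 8.496 on the Kit-J arrays, above every Kit- (8.132 to 8.288) and Kit-D array (7.046 to 8.016). It ran from 8.509 to 8.995 on the Kit+D arrays and from 9.02 to 9.928 on the Kit+J arrays. Kit-D replicate 3 was at 8.016 and Kit+D replicate 3 at 8.995. Comparisons with Kit-J rest on its titles, which were not tested. The endothelial gene Cdh5 (VE-cadherin) reached 11.10 on the Kit- and 11.42 on the Kit-D arrays and varied little there, against 8.15 and 8.29 on the Kit-J arrays and 4.68 to 8.58 on the Kit+, Kit+J and Kit+D arrays. Kit+D replicates 1 and 3 each stood apart from their group. On replicate 1 the 12 germ cell markers had a mean of -2.22 relative to all arrays, against 0.83 and 1.44 on Kit+D replicates 2 and 3. The 10 myeloid markers of replicate 1 had a mean of 2.30, against -0.52 and -1.29. On replicate 3 the 9 haematopoietic markers had a mean of -1.31, against 1.03 and 0.29 on Kit+D replicates 1 and 2. The stromal gene Mgp was at 9.75 on Kit+D replicate 3, against 4.975 and 6.025. It was at 10.55 on Kit-D replicate 3, against 6.22 and 6.56 on Kit-D replicates 1 and 2. Kit-D replicate 1 stood apart in other lists. Its myeloid markers had a mean of 0.98, against -1.045 and -1.07 on Kit-D replicates 2 and 3. Its haematopoietic markers had a mean of -0.06, against -1.325 and -1.38.

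Promoter sequences show which control letters the replication and the mitosis genes have in front of them. Of the 40 genes listed, 32 had an entry in the RefSeq promoter table (GRCm38.p6), which gives 250 bases before and 50 after each start. On both strands, an E2F site was read as TTTCCCGC or TTTGGCGC, a CCAAT box as CCAAT and a CHR element as TTTGAA, and 2 motifs shared bases in 0 of 33 windows of these genes. An E2F site was in 7 of the 32 genes, or 21.9%, against 1.56% of all 32851 promoters. 6 of the 7 were licensing and helicase genes (Mcm3, Mcm5, Mcm6, Mcm7, Cdt1 and Cdc6), and the other was the polymerase gene Pola1. A CHR element was in 5 of 7 genes of mitotic kinases and checkpoint and in 5 of 6 of chromosome and spindle proteins, but in 2 of 9 licensing genes and in 0 of 6 of DNA synthesis. The share over all promoters was 17.9%. CCAAT boxes were in 27 of 32 genes, against 37.4% of all promoters. These matches describe letters only. The 160 bases before the start are given for 2 licensing genes and 2 mitotic genes, each higher in Kit+D than in Kit-D cells, to show how the motifs are placed, and run 5′ to 3′ on the strand of the gene. Capitals mark the 3 motifs, with GCGCCAAA and ATTGG being the E2F site and the CCAAT box read on the other strand.
Mcm5, chr8:75109349-75109508, plus strand: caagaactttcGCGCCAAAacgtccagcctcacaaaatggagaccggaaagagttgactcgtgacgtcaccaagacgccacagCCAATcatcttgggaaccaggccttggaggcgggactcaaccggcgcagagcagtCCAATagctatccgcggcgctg
Mcm6, chr1:128359706-128359865, minus strand: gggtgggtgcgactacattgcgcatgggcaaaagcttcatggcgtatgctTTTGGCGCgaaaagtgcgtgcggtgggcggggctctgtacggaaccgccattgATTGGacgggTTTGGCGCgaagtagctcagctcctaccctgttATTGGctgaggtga
Cdk1, chr10:69352913-69353072, minus strand: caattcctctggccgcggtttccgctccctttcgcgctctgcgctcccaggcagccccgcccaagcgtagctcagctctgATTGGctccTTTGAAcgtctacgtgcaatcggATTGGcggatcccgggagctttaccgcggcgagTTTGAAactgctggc
Cdc20, chr4:118437344-118437503, minus strand: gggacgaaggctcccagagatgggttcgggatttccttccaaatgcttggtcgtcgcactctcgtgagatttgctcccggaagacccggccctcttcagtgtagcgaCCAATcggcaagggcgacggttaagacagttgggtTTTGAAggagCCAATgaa

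The highest group mean was found in Kit+D for 19 of the 39 genes, in Kit+J for 13, in Kit+ for 5 and in Kit-J for 2. The lowest was in Kit-D for 23, in Kit-J for 8, in Kit+J for 4, and for 2 genes each it was Kit- or Kit+D. With each gene set to its mean over the 17 arrays, the fresh groups had an average over the 39 genes of -0.16 ± 0.06 (Kit-, SD, n = 3) and 0.17 ± 0.08 (Kit+, n = 3). On OP9-Jag1 this average was -0.13 ± 0.26 (Kit-J, n = 2) and 0.17 ± 0.16 (Kit+J, n = 3), and on OP9-Dll4 it was -0.35 ± 0.09 (Kit-D, n = 3) and 0.26 ± 0.19 (Kit+D, n = 3). The Kit-D arrays (-0.44 to -0.27) all lay below the Kit+D arrays (0.05 to 0.44), and the fresh Kit- arrays (-0.23 to -0.10) below the fresh Kit+ arrays (0.11 to 0.26). Kit-J replicate 2 (0.06) lay above Kit+J replicate 2 (-0.004), so on OP9-Jag1 the fractions overlapped.

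**Figure D1:**
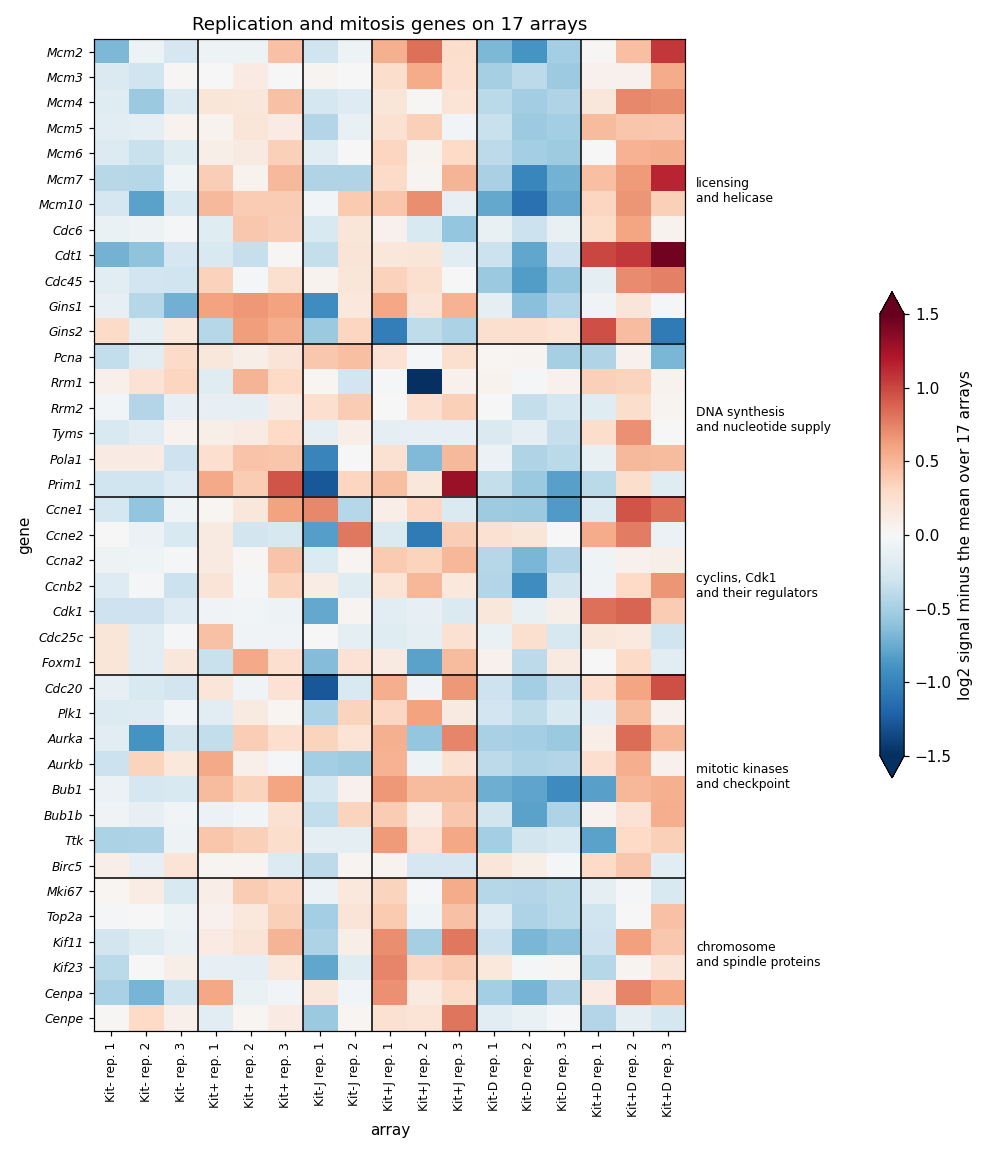
Log2 signal of each of the 39 genes (rows, by role) on the 17 arrays (columns, by group), as the difference from the gene's mean over all arrays, with the colour scale ending at 1.5 either way. The 3 Kit-D columns are mostly blue, the Kit+D and Kit+J columns mostly red in the licensing block, and Kit-J replicate 1, Kit+J replicate 2 and Kit+D replicate 1 differ from the other arrays of their groups in several rows.

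**Figure D2:**
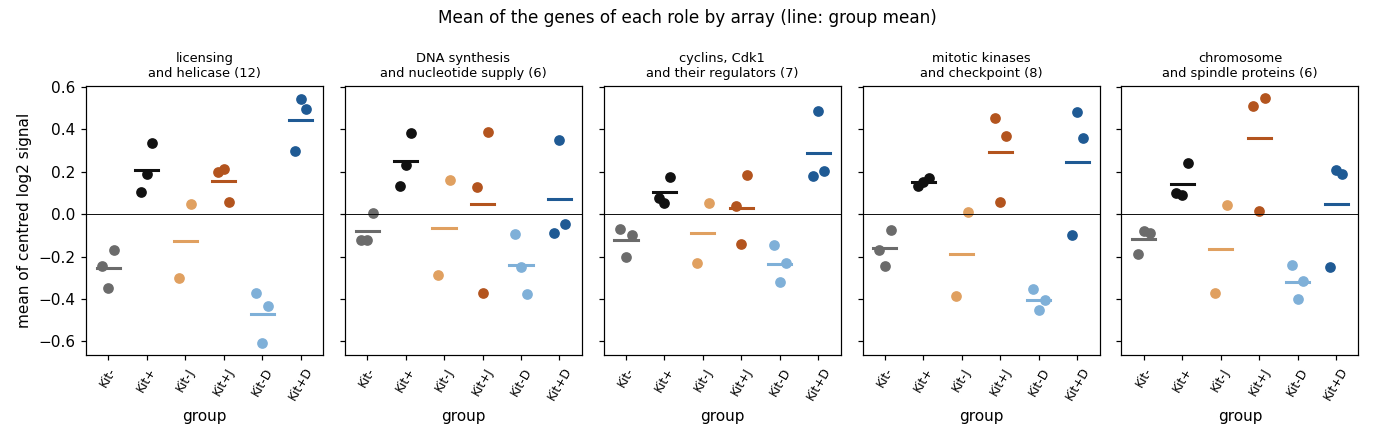
Mean of the centred log2 signals of the genes of each role, by array (points) with the group mean (line), with the number of genes in the panel title. In the licensing panel the Kit-D arrays lie from -0.61 to -0.37 and the Kit+D arrays from 0.30 to 0.54; in the chromosome and spindle panel Kit+D replicate 1 lies at -0.25, among the Kit-D arrays (-0.40 to -0.24).

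Most calls between Kit+ and Kit- cells came after OP9-Dll4. In Kit+D against Kit-D, 20 of the 39 genes were higher and 0 lower at an adjusted p under 0.05 (limma without pairing of arrays, Benjamini-Hochberg over all genes tested). Of all genes tested, 6.50% were higher and 13.1% were called in either direction. The median difference over the 39 was 0.60 on the log2 scale, with 35 of 39 positive, against 0.05 over all genes tested. For 24 of the 39 every Kit+D array lay above every Kit-D array, which held for 17.7% of all genes. By role, the calls were 9 of 12 in licensing and helicase, 1 of 6 in DNA synthesis, 4 of 7 in cyclins and Cdk1, 5 of 8 in mitotic kinases and checkpoint and 1 of 6 in chromosome and spindle proteins.

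All 6 genes of the Mcm2 to Mcm7 ring were higher in Kit+D. Mcm7 was at 7.91, 7.41 and 7.68 on the Kit-D arrays and at 8.84, 9.02 and 9.54 on the Kit+D arrays. The groups were apart by almost a log2 unit at their nearest arrays, and the difference was 1.47 ± 0.20 (SE, adjusted p = 0.000319). Mcm4 was at 8.21, 8.10 and 8.17 in Kit-D and at 8.79, 9.33 and 9.32 in Kit+D, a difference of 0.99 ± 0.16 (adjusted p = 0.0011). Mcm5 had the narrowest range of the ring over the 17 arrays (1.01), at 8.17, 7.96 and 7.99 in Kit-D and at 8.97, 8.92 and 8.90 in Kit+D, a difference of 0.89 ± 0.14 (adjusted p = 0.000816). The remaining 3 differed by 1.197 ± 0.25 (Mcm2), 0.71 ± 0.15 (Mcm3) and 0.83 ± 0.15 (Mcm6). Kit-D and Kit+D arrays did not overlap for any of the 6.

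Cdt1, the loading factor that is destroyed once S phase begins, had the largest difference of the 39 genes. It was at 6.16, 5.71 and 6.18 on the Kit-D arrays and at 7.49, 7.55 and 7.93 on the Kit+D arrays, a difference of 1.64 ± 0.20 (adjusted p = 0.000129). The 3 Kit+D arrays were its highest of the 17, and the next highest value was 6.68 on Kit-J replicate 2. Mcm10, which helps to activate the helicase, was at 6.77, 6.42 and 6.79 in Kit-D and at 7.87, 8.21 and 7.90 in Kit+D, a difference of 1.33 ± 0.22 (adjusted p = 0.00111). Cdc45, the helicase partner of the ring, was at 7.45, 7.16 and 7.43 in Kit-D and at 7.86, 8.70 and 8.76 in Kit+D (1.09 ± 0.20, adjusted p = 0.00293), and its lowest Kit+D value came from replicate 1. The other licensing genes did not pass. Cdc6, the partner of Cdt1 in loading, differed by 0.49 ± 0.20 (adjusted p = 0.13) and Gins1 by 0.44 ± 0.23 (adjusted p = 0.243), both with arrays apart. Gins2, of the same GINS complex, was the exception in direction (-0.11 ± 0.42, adjusted p = 0.905). It was at 8.92, 8.42 and 6.89 on the Kit+D arrays, the widest spread of the role there, and between 8.15 and 8.19 on the Kit-D arrays.

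**Figure D3:**
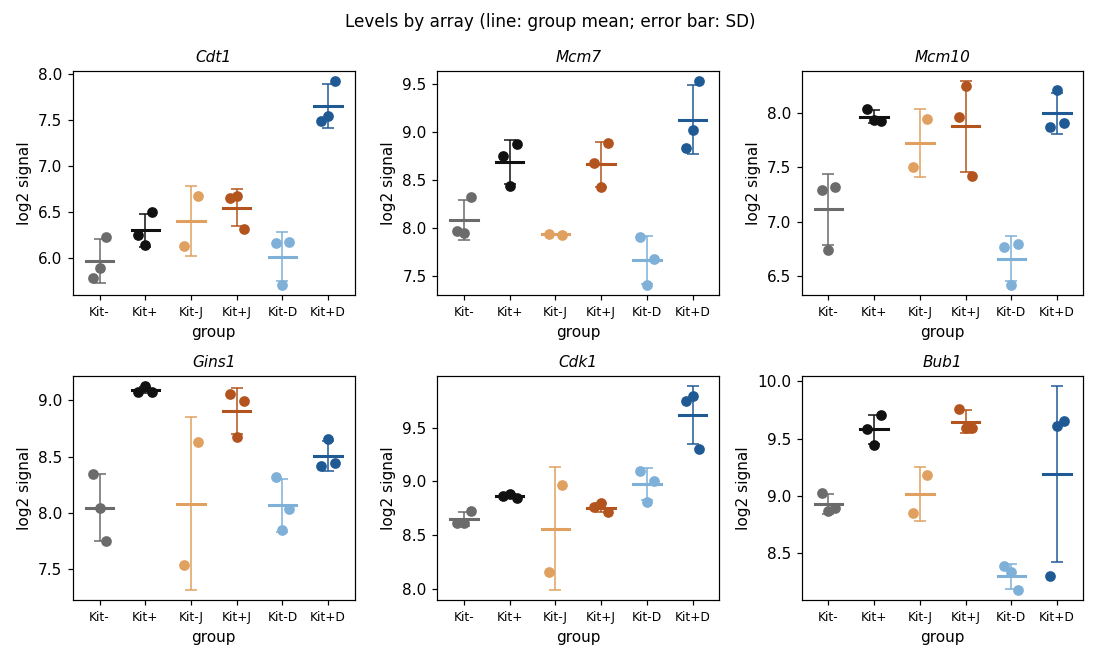
Log2 signal of 6 genes (Cdt1, Mcm7, Mcm10, Gins1, Cdk1 and Bub1) by group, with each array as a point, the group mean as a line and the SD as an error bar. Cdt1 and Cdk1 are highest on the 3 Kit+D arrays, Gins1 on the 3 Kit+ arrays, and Bub1 has 1 Kit+D array (8.30) within the Kit-D range (8.18 to 8.39).

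Of the 6 genes of DNA synthesis and nucleotide supply, only Tyms, which makes thymidylate, passed in Kit+D against Kit-D. It was at 7.72, 7.80 and 7.59 in Kit-D and at 8.21, 8.63 and 7.95 in Kit+D, a difference of 0.56 ± 0.16 (adjusted p = 0.0331). The ribonucleotide reductase subunits Rrm1 and Rrm2 differed by 0.22 ± 0.37 and 0.25 ± 0.16, and both overlapped between the groups. Pola1, the catalytic subunit of polymerase alpha, differed by 0.60 ± 0.29 (adjusted p = 0.2) and Prim1, the primase, by 0.47 ± 0.35 (adjusted p = 0.411). Pcna, the sliding clamp, was the brightest of the 39 genes, between 11.33 and 12.46 on the 17 arrays. Its 2 probe sets differed in sign here (-0.21 and 0.14), and RefSeq lists near-identical pseudogenes of it, so its value is uncertain.

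Among the cyclins, Ccne1 (cyclin E1, of the G1 to S step) was at 6.86, 6.84 and 6.54 in Kit-D and at 7.19, 8.34 and 8.22 in Kit+D, a difference of 1.17 ± 0.32 (adjusted p = 0.0246). Its relative Ccne2 differed by 0.27 ± 0.38 and overlapped. Ccna2 (cyclin A2, of S phase and G2) was at 8.74, 8.48 and 8.73 in Kit-D and at 9.10, 9.24 and 9.26 in Kit+D (0.55 ± 0.14, adjusted p = 0.0152). Ccnb2 (cyclin B2, a mitotic partner of Cdk1) was at 9.50, 9.02 and 9.67 in Kit-D and at 9.90, 10.24 and 10.61 in Kit+D (0.86 ± 0.20, adjusted p = 0.0129). These 3 were lower on every Kit-D array than on any Kit+D array. Cdk1, the kinase of mitotic entry, was at 9.10, 8.81 and 9.01 in Kit-D and at 9.75, 9.79 and 9.30 in Kit+D (0.64 ± 0.18, adjusted p = 0.0311). Its Kit-D arrays were not low among the 17, since all but replicate 2 lay above every Kit-, Kit+ and Kit+J array. The phosphatase gene Cdc25c (0.04 ± 0.19) and the transcription factor gene Foxm1 (0.11 ± 0.32) did not pass.

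Of the mitotic kinases and checkpoint genes, Cdc20, which activates the anaphase-promoting complex, was at 8.26, 8.07 and 8.23 in Kit-D and at 8.83, 9.17 and 9.55 in Kit+D, a difference of 0.995 ± 0.25 (adjusted p = 0.0171). Aurka (Aurora A, of the spindle poles) was at 8.14, 8.12 and 8.08 in Kit-D and at 8.73, 9.47 and 9.13 in Kit+D (0.99 ± 0.31, adjusted p = 0.047). Aurkb (Aurora B, of the centromeres) differed by 0.71 ± 0.21 (adjusted p = 0.0338) and Bub1b, a spindle checkpoint gene, by 0.79 ± 0.20 (adjusted p = 0.0162), again without overlap. Bub1, another kinase of that checkpoint, was called with overlapping arrays, at 8.39, 8.33 and 8.18 in Kit-D and at 8.30, 9.61 and 9.65 in Kit+D (0.89 ± 0.26, adjusted p = 0.0376). Its Kit+D value was thus low on replicate 1 alone. Plk1 (0.44 ± 0.20, adjusted p = 0.175), Ttk (0.29 ± 0.25, adjusted p = 0.487) and Birc5, or survivin (0.10 ± 0.17, adjusted p = 0.754), did not pass.

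Of the chromosome and spindle proteins, Cenpa, the histone variant of centromeres, was at 8.27, 8.08 and 8.33 in Kit-D and at 8.90, 9.52 and 9.37 in Kit+D, a difference of 1.04 ± 0.21 (adjusted p = 0.00544). The spindle motor gene Kif11 differed by 0.77 ± 0.30 (adjusted p = 0.11). The proliferation marker Mki67 was at 8.73, 8.72 and 8.76 in Kit-D and at 9.03, 9.14 and 8.93 in Kit+D, a difference of 0.30 ± 0.16 (adjusted p = 0.238). Its arrays were apart, although by little. Top2a, which untangles sister chromosomes, differed by 0.39 ± 0.21 (adjusted p = 0.24). The motors Kif23 and Cenpe differed by -0.11 ± 0.20 and -0.18 ± 0.19 and overlapped.

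The calls of Kit+D against Kit-D depended on the arrays. With the OP9-Dll4 arrays fitted alone and same-numbered arrays as a replicate block, 9 genes were called beside 6.75% of all genes, and leaving out Kit-D replicate 2 left 10 beside 7.89%. Without 3 arrays whose markers stood apart (Kit+D replicates 1 and 3 with Kit-D replicate 3), a choice made after seeing the data, 13 were called beside 6.68% of all genes. That fit kept Kit-D replicate 1, whose myeloid and haematopoietic marker means stood apart too. Mcm4, Mcm5, Mcm7, Mcm10, Cdt1 and Cenpa were called under every alternative tried, and 10 genes when any 1 array was left out, namely Mcm2 to Mcm7, Mcm10, Cdt1, Cdc45 and Cenpa. Markers of other cells moved with the same comparison. All 12 endothelial markers were lower in Kit+D (mean of the list 1.86 to 2.26 on Kit-D arrays and -1.26 to -0.14 on Kit+D arrays). Of the germ cell markers 5 of 12 were higher (-2.70 to -1.07 and -2.22 to 1.44). Of the haematopoietic markers, which include Kit itself, 2 of 9 were higher (-1.38 to -0.06 and -1.31 to 1.03). Of the stromal markers 4 of 12 were lower, and all 12 differences were negative (0.16 to 1.15 and -0.77 to 0.55). Of the myeloid markers 0 of 10 passed, and of the erythroid markers 0 of 7. On Kit+D replicate 1 the germ cell gene Pou5f1 was at 4.75, against 9.70 and 9.94 on replicates 2 and 3. The part of cell composition in these values was not tested.

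Other genes of the same processes were counted from lists drawn up with results of these data known. In Kit+D against Kit-D, 13 of 27 other replication genes and 6 of 34 other mitosis genes were higher and 0 were lower, with medians of 0.63 and 0.47. Of all genes tested, 6.50% were higher and 13.1% were called in either direction, with a median of 0.05. Pole, the catalytic subunit of the leading strand polymerase, was at 6.64, 5.98 and 6.57 in Kit-D and at 7.29, 7.88 and 8.34 in Kit+D (1.44 ± 0.24, adjusted p = 0.00148). Lig1, which joins Okazaki fragments, differed by 0.94 ± 0.17 (adjusted p = 0.00265). Among the mitosis genes Espl1 (separase) differed by 1.40 ± 0.24 (adjusted p = 0.00162) and Ube2c, a ubiquitin-conjugating enzyme of the anaphase-promoting complex, by 0.84 ± 0.15 (adjusted p = 0.00215).

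In fresh cells the direction was the same for most genes, but few passed. In Kit+ against Kit-, 2 of 39 genes were higher and 0 lower, while 3.23% of all genes were called. In a fit of these groups alone 5 of 39 were called, and 6.7% of all genes. The median of the 39 was 0.29, against 0.06 over all genes, and 36 of 39 were positive. For 20 of 39 every Kit+ array lay above every Kit- array, against 16.0% of all genes. Gins1 was at 8.35, 8.05 and 7.75 on the Kit- arrays and at 9.08, 9.13 and 9.08 on the Kit+ arrays, a difference of 1.04 ± 0.23 (adjusted p = 0.022). Mcm10 was at 7.29, 6.74 and 7.32 in Kit- and at 8.03, 7.93 and 7.93 in Kit+, a difference of 0.85 ± 0.22 (adjusted p = 0.0455). The Kit+ arrays of both genes were close together and the Kit- arrays spread more. When each of the 17 arrays was left out in turn, Mcm10 lost its call in 10 cases (adjusted p up to 0.219, without Kit- replicate 2) and Gins1 in 5 (up to 0.113, without Kit- replicate 3). Of the wider lists, the Cdk partner gene Cks2 was higher (0.70 ± 0.18, adjusted p = 0.04). Among the genes short of the threshold, Mcm4 differed by 0.58 ± 0.16 (adjusted p = 0.0686), Ttk by 0.68 ± 0.25 (adjusted p = 0.193) and Prim1 by 0.90 ± 0.35 (adjusted p = 0.237). Markers of other cells moved with this comparison too. In Kit+ 11 of 12 endothelial markers were lower (mean of the list 1.59 to 1.71 on Kit- arrays and -1.50 to -1.10 on Kit+ arrays). So were 3 of 12 stromal markers (0.35 to 0.83 and -0.74 to -0.56) and 2 of 7 erythroid markers (0.29 to 0.998 and -0.78 to -0.62). Of the 7 erythroid differences 4 were negative and 3 positive. Of the germ cell markers 1 of 12 was higher (-0.40 to -0.31 and 0.67 to 0.99), and of the myeloid markers 0 of 10 passed (0.21 to 1.15 and -0.23 to -0.006). Of the haematopoietic markers, which include Kit itself, 2 of 9 were higher (-0.22 to 0.07 and 0.46 to 0.53). None of these list means overlapped between the groups, and their part in the values was not tested.

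On OP9-Jag1 the test of Kit+J against Kit-J by limma called 0 of the 39 and 0.0903% of all genes. At an unadjusted p under 0.05 there were 11 of 39, and 10.7% of all genes. The median of the 39 was 0.32, against -0.03 over all genes, 30 were positive, and for 15 of 39 every Kit+J array lay above both Kit-J arrays, against 10.0% of all genes. Cdc20 was at 7.31 and 8.35 on the Kit-J arrays and at 9.13, 8.52 and 9.23 on the Kit+J arrays, and Kif23, of the midbody, at 7.99 and 8.58 and at 9.50, 9.08 and 9.15. Both were apart by less than the distance between the 2 Kit-J arrays. Kit-J replicate 1 was the lower of the 2 arrays for 30 of the 39 genes, and for Prim1 they stood at 7.64 and 9.23. Of the endothelial markers 1 of 12 was called lower in Kit+J and 11 differences were negative (list mean -0.86 and -0.34 on Kit-J arrays, -1.67 to -1.25 on Kit+J arrays). Of the germ cell markers 0 passed and 11 of 12 differences were positive. Of the myeloid markers 0 passed and all 10 differences were negative. The part of these markers in the values was not tested.

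**Figure D4:**
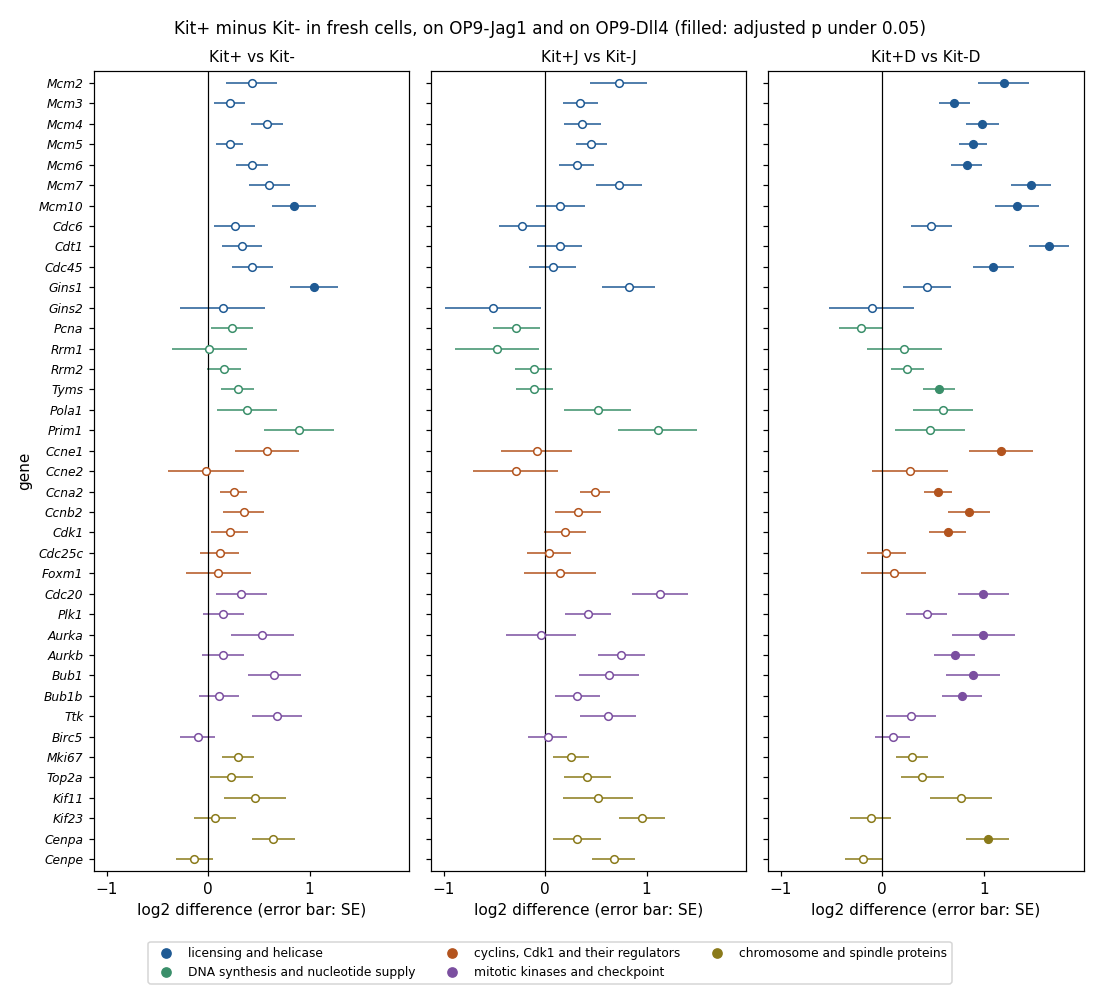
Log2 difference of Kit+ minus Kit- cells for each of the 39 genes, fresh, on OP9-Jag1 and on OP9-Dll4, with the SE as an error bar and filled points for an adjusted p under 0.05. There are 2, 0 and 20 filled points in the 3 panels. The licensing genes at the top, other than Gins1 and Gins2, lie farther to the right in the OP9-Dll4 panel than in the others.

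Whether the distance between Kit+ and Kit- cells was larger after OP9-Dll4 than in fresh cells was tested as a difference of differences, added after seeing the data. By limma 0 of 39 genes passed, and 0% of all genes did. At an unadjusted p under 0.05 there were 7 of 39, among them Cdt1 at 1.31, and 8.98% of all genes. The median of the 39 was 0.29, against -0.006 over all genes, and 31 of 39 were positive, but the median was not tested. Since 0 genes passed, the larger count of calls after OP9-Dll4 is not shown to be a larger difference.

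The ligands were compared within each Kit fraction. In Kit- cells, 2 of 39 genes were higher on OP9-Jag1 than on OP9-Dll4 and 0 were lower, while 9.37% of all genes were called. Mcm10 was at 7.50 and 7.94 on the Kit-J arrays, above the Kit-D values given for it (1.06 ± 0.24, adjusted p = 0.0152). Cdc45 was at 8.06 and 8.19 (0.77 ± 0.23, adjusted p = 0.0465). Leaving out each array in turn, Cdc45 lost its call in 12 of 17 cases (adjusted p up to 0.191, without Kit-J replicate 1) and Mcm10 in 2 (0.0763 without Kit-J replicate 2 and 0.0566 without Kit-D replicate 2). For 17 of 39 genes both Kit-J arrays lay above all Kit-D arrays, but so they did for 28.9% of all genes. Of the wider lists the kinesin gene Kif18a (1.53 ± 0.37, adjusted p = 0.0187) and Espl1 (0.96 ± 0.27, adjusted p = 0.0373) were higher and the clamp loader gene Rfc3 lower (-0.80 ± 0.22, adjusted p = 0.0355). In this comparison 8 of 12 germ cell markers were higher and 11 of 12 endothelial markers lower in Kit-J. Of the haematopoietic markers 2 of 9 were higher (0.23 and 0.65 on the Kit-J arrays, -1.38 to -0.06 on the Kit-D arrays). Of the stromal markers 3 of 12 were lower in Kit-J (-0.49 and -0.04, against 0.16 to 1.15). So were 3 of 7 erythroid markers (-0.68 and -0.46, against -0.10 to 1.22), while the other erythroid differences were positive. Of the myeloid markers 0 of 10 passed. The list means were 0.50 and 0.73 on the Kit-J arrays against -2.70 to -1.07 on the Kit-D arrays for the germ cell markers, and -0.86 and -0.34 against 1.86 to 2.26 for the endothelial markers, and their part in the values was not tested.

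In Kit+ cells the called genes were lower on OP9-Jag1. In Kit+J against Kit+D, 2 of 39 genes were lower and 0 higher, with 2.25% of all genes called. Cdt1 was at 6.66, 6.67 and 6.32 on the Kit+J arrays, all below its Kit+D arrays (-1.11 ± 0.20, adjusted p = 0.0148). Cdk1 was at 8.76, 8.80 and 8.71, again below all Kit+D arrays (-0.86 ± 0.18, adjusted p = 0.0264). In a fit of these groups alone neither passed (adjusted p = 0.234 and 0.281), and Cdk1 lost its call in 5 of 17 cases when 1 array was left out (up to 0.102, without Kit+D replicate 2). Not all genes had this direction. Ccna2 (0.38 ± 0.14, adjusted p = 0.149), Cenpe (0.69 ± 0.19, adjusted p = 0.0681) and Kif23 (0.54 ± 0.20, adjusted p = 0.168) stood higher on all Kit+J arrays than on any Kit+D array. The thymidine salvage gene Tk1, from the wider list, was at 7.22, 7.95 and 7.37 in Kit+J and at 9.24, 8.64 and 8.43 in Kit+D (-1.26 ± 0.25, adjusted p = 0.0194). The mean of the erythroid markers moved the same way, but not each gene did. Of 7 measured, 4 had a negative difference (down to -5.91) and 3 a positive one, and 2 were called lower on OP9-Jag1. The mean of the list was -1.25, -1.23 and -0.94 on the Kit+J arrays and 1.18, 1.21 and 0.25 on the Kit+D arrays. Of the endothelial markers 3 of 12 were lower, their list mean lying from -1.67 to -1.25 on the Kit+J arrays and from -1.26 to -0.14 on the Kit+D arrays. Their part in these differences was not tested.

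The ligand difference itself differed between the Kit fractions for 1 of the 39 genes, with 1.98% of all genes called. For Cdt1 the OP9-Jag1 minus OP9-Dll4 difference was larger in Kit- than in Kit+ cells by 1.50 ± 0.30 (adjusted p = 0.0227). Mcm10 came nearest among the others, with 1.18 ± 0.32 (adjusted p = 0.0778), then Kif23 in the opposite direction with -1.07 ± 0.30 (adjusted p = 0.0884). Median and direction over the 39 were 0.36 and 30 positive, against 0.06 over all genes. The call of Cdt1 was lost when only the 4 cultured groups were fitted (adjusted p = 0.0898), without Kit-D replicate 2 (0.0547) and without Kit+J replicate 3 (0.0515).

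Against fresh cells, 1 of 39 genes changed. Cdt1 was at 6.25, 6.15 and 6.50 on the fresh Kit+ arrays and higher in Kit+D (1.36 ± 0.20, adjusted p = 0.00629), with 1.42% of all genes called. It was lost in a fit of these groups alone (adjusted p = 0.0901). Cdk1 was at 8.87, 8.88 and 8.85 on the fresh Kit+ arrays, and its difference of 0.75 ± 0.18 did not pass (adjusted p = 0.0577). The other 3 cultured groups had 0 of 39 calls each by limma, beside shares of all genes of 0.0201% (Kit+J), 2.14% (Kit-J) and 0.171% (Kit-D). At an unadjusted p under 0.05 there were 4 of 39 genes in Kit+J, 5 in Kit-J and 6 in Kit-D, beside 6.67%, 13.7% and 11.2% of all genes. The median of the 39 in Kit-D against Kit- was -0.18, against -0.02 over all genes, and for 18 of 39 all Kit-D arrays lay below all Kit- arrays, against 13.4% of all genes. Tk1 was higher in Kit+D than in Kit+ (1.07 ± 0.25, adjusted p = 0.0467). So were 2 of the 7 erythroid markers, of which 5 had a positive difference and 2 a negative one. Their list mean lay from -0.78 to -0.62 on the Kit+ arrays and from 0.25 to 1.21 on the Kit+D arrays. The part of these markers in the values of Cdt1 and Tk1 was not tested. The change on OP9-Jag1 differed between the fractions for 0 of 39 genes and for 0.582% of all genes by limma, and at an unadjusted p under 0.05 for 4 of 39 and for 9.44% of all genes.

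Over the 17 arrays the 39 genes did not all vary together. Their median SD over the arrays of a group was 0.14 in Kit-D, 0.16 in Kit+, 0.17 in Kit-, 0.23 in Kit+J, 0.24 in Kit-J and 0.31 in Kit+D, close to the median SDs of all genes, which ran from 0.16 to 0.26. Kit+D replicate 1 had the lowest value of its group for 26 of 39 genes and Kit-D replicate 2 for 25. The widest ranges over the 17 arrays belonged to Prim1 (2.56), Rrm1 (2.38), Cdc20 (2.24) and Cdt1 (2.22). That of Rrm1 came from 1 array, Kit+J replicate 2 at 7.14, with the other 16 between 8.72 and 9.52. Over the 17 arrays, which share group and array set, the correlation of a gene with the mean of the other members was highest for Mcm6 (r = 0.963), Mcm4 (0.917) and Kif11 (0.892), and lowest for Gins2 (-0.192), Cdc25c (0.03), Rrm1 (0.037), Pcna (0.07) and Birc5 (0.08). Pairs of licensing genes had a median r of 0.71, pairs of chromosome and spindle genes 0.57, and pairs of cyclins, Cdk1 and their regulators 0.06, against 0.43 over all 741 pairs.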

How the data were processed

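The 17 arrays (Affymetrix mouse gene arrays) were analysed from the log2 values the authors deposited, made with RMA per the labels (version not given in the sources used here). RMA subtracts background, gives every array the same distribution of probe values and summarizes probes by set, which is meant to remove a shift of all genes. The medians of the deposited arrays still ran from 5.22 to 5.38, and the median difference over all genes was 0.11 in Kit-J against Kit-D. Values ran from 1.24 to 13.58. Of 34760 probe sets, 21640 had 1 symbol in the platform annotation, 1321 several and 11799 none; only the first kind was used, with the brightest set of a gene (19937 genes). Groups followed the sample titles. Group means of all 17 arrays were fitted in 1 model with limma 3.58.1 (R 4.3.3), and the comparisons were contrasts of it with eBayes variances and p-values adjusted after Benjamini and Hochberg over all 19937; a call needed an adjusted p under 0.05. A test for differential expression is not named in the paper. Replicates were independent sorts per the paper. The fit was tested on simulated data.

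Members, roles and lists were chosen with earlier results of these data known. All members were named, in full where called or widest in range; up to 4 called genes of the wider lists (61 of 62 found) and the 10 genes most like the members' mean were added. Genes named for other reasons were chosen after their values were seen. Deviations from the group means were correlated between Kit-D and Kit+D arrays of 1 number (r = 0.46, 0.18 and 0.29), while arrays of different numbers ran from -0.38 to 0.13. Per the paper both Kit fractions were recovered from each culture, but no label ties a replicate number to a culture. The numbers were treated as pairs in the replicate block alternatives only, on the strength of the data. The main fit had no block, so its SEs and p-values for Kit+D against Kit-D are not paired. As alternatives, the model held only the groups compared, used a trended variance with robust prior, or was changed by removal of genes with a mean under 5, another quantile normalization, scaling to 7 housekeeping genes, array weights, the mean of probe sets, a replicate block and leaving out each array, and, added after seeing the data, a fit without 3 OP9-Dll4 arrays and one restricted to the OP9-Dll4 arrays and blocked on replicate number. Promoter sequences came from RefSeq (GRCm38.p6) and plotting used matplotlib 3.10.9 under Python 3.11.15 (pandas 2.3.3, numpy 2.4.6).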

Additional observations from a re-analysis of the deposited data

Results flagged for a closer look

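The ligand difference of Cdt1 differed between Kit- and Kit+ cells by a test of that difference (1.50 ± 0.30 on the log2 scale, adjusted p = 0.0227, limma). Among Kit- cells Cdt1 was at 6.13 and 6.68 on OP9-Jag1 and at most 6.18 on OP9-Dll4. Among Kit+ cells it was at most 6.67 on OP9-Jag1 and at least 7.49 on OP9-Dll4. It was above the threshold in 5 of the 26 alternatives, with adjusted p from 0.0207 to 0.0898 over all of them. For Tk1, of the wider replication list, the same test gave 1.53 ± 0.37 (adjusted p = 0.0488), with 7.84 and 8.64 on the Kit-J arrays and at most 8.10 on the Kit-D arrays, and with at most 7.95 on the Kit+J arrays and at least 8.43 on the Kit+D arrays. Marker lists moved as well. The mean of the 7 erythroid markers lay from -1.25 to -0.94 on the Kit+J arrays and from 0.25 to 1.21 on the Kit+D arrays. In the Kit- fraction it lay from -0.68 to -0.46 on the Kit-J arrays and from -0.10 to 1.22 on the Kit-D arrays. Single erythroid genes went both ways, with 4 differences negative and 3 positive in Kit+J against Kit+D. In Kit-J against Kit-D 3 were negative and 4 positive. The germ cell and endothelial marker means differed between Kit-D and Kit+D arrays. The part of these cells in the values of Cdt1 and Tk1 was not tested.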

How the results depend on the processing

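No called gene changed sign under any alternative run, but medians of the 39 near 0 did. With quantile normalization again they became -0.009 in Kit+J against Kit+ (0.02 before) and -0.02 in Kit+D against Kit+ (0.11). When each array was left out they ran from -0.029 to 0.148 and from -0.032 to 0.176 there, from -0.147 to 0.223 in Kit-J against Kit- (0.05) and from -0.196 to 0.016 in Kit+J against Kit+D (-0.11), and also changed sign in the OP9-Jag1 change between fractions (-0.121 to 0.205). Of the results recomputed, 133 values of called genes lost their call and 68 counts or medians moved, while 1125 were labelled the same. That label still covers medians that changed sign, and the Kit+D against Kit-D count where it fell from 20 to 14 with 1 array left out. In Kit+D against Kit-D the 20 calls (13.1% of all genes) became 10 (6.63%) with only these groups fitted, 12 (8.58%) with housekeeping scaling, 13 (6.68%) without the 3 OP9-Dll4 arrays and 9 (6.75%) in the OP9-Dll4 arrays alone with replicate block (19 with the block over all arrays), and ran from 10 to 21 when each array was left out, with 14 without Kit-D replicate 1, Kit-D replicate 3 or Kit+D replicate 2. All 12 called with housekeeping scaling, and all those called in the other 3 fits, were among the 20. In Kit+ against Kit- the 2 calls (3.23%) became 5 (6.7%) with only these groups fitted, 1 with the variance trend, housekeeping scaling or replicate block (2.99% to 3.09%), 9 (8.67%) with array weights and 4 (4.54%) without the 3 arrays (0 to 5 by array). In Kit-D against Kit- the 0 (0.171%) became 1 (0.191%) with quantile normalization again, when the median was -0.34, and 2 (3.91%) with array weights (0 to 1 by array). In Kit+D against Kit+ the 1 (1.42%) became 0 with only these groups fitted (0.0301%) or without the 3 arrays (0.782%), and 2 with housekeeping scaling (0.953%) or array weights (5.39%) (1 to 2). In Kit-J against Kit-D the 2 (9.37%) became 9 (8.61%) with quantile normalization again and 1 (5.68% to 9.63%) with the variance trend, housekeeping scaling, array weights or replicate block (0 to 3). In Kit+J against Kit+D the 2 (2.25%) became 0 with only these groups fitted (0.01%) and without the 3 arrays (1.13%) (1 to 4 by array). For the ligand difference between Kit fractions the 1 (1.98%) became 0 (0.221% to 0.828%) with only these groups fitted, array weights or without the 3 arrays (0 to 4). By array, the counts were 0 to 1 in Kit-J against Kit-, 0 to 4 in Kit+J against Kit-J and 0 in Kit+J against Kit+. The cause was not tested, apart from the fewer arrays fitted. Housekeeping scaling moved the median of all genes by -0.103 in Kit+ against Kit- and by -0.106 in Kit+J against Kit-J, where the members' medians became 0.19 and 0.21. The replicate block changed no other count. Where an array of Kit-J was left out, or Kit+D replicates 1 and 3, the remaining array took the spread of the other groups, an assumption. Same-numbered correlations were from 0.006 to 0.065 for the fresh arrays and -0.114 and -0.263 for the OP9-Jag1 arrays. They do not settle whether these arrays were paired, since no label ties a number to a sort. The paper left out 1 Kit-J sample, so Kit-J and Kit+J numbers may not match.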

Other observations

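Outside the list, the 10 genes whose levels over the 17 arrays were most like the mean of the members were Cenpi (r = 0.947), Aatf (0.925), Fignl1 (0.925), Wdhd1 (0.922), Nelfa (0.911), Prpsap2 (0.91), Suz12 (0.907), Wdr75 (0.905), Lars (0.904) and Nup205 (0.903). Cenpi encodes a centromere protein and Wdhd1 a replication fork protein. Cenpi ran from 4.98 to 6.81 and Wdhd1 from 7.25 to 8.35 on the log2 scale. The likeness was computed over all 17 arrays, which share groups and array sets, and is given as a description.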
